A study of Mus musculus with 4 samples.

Results

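The alpha-globin locus of the mouse was examined in 4 lists of transcription start regions, 2 from liver and 2 from yolk sac. It was defined by 8 genes, Hba-a1, Hba-a2, Hba-x, Hbq1b, Nprl3, Mpg, Rhbdf1 and Snrnp25, of 21951 protein-coding genes in the GENCODE M21 annotation of GRCm38. All peaks with a midpoint on chromosome 11 from 32100001 to 32400000 were also included, an interval of 300 kb. The interval held 17 of the 24863 peaks of liver replicate 1 and 17 of the 24333 peaks of liver replicate 2. In yolk sac it held 16 of 50525 peaks in replicate 1 and 9 of 43055 in replicate 2. Each library was made by PRO-seq, which maps RNA polymerases engaged in transcription from the RNA they extend in isolated chromatin. Tissue was taken at E14.5 (days of gestation) and pooled from 6 embryos per library. The embryos came from C57BL/6J mothers, and the fathers were of mixed C57BL/6J and CAST/EiJ background and carried CAST/EiJ polymorphisms at the Dlk1/Gtl2 locus, which is on another chromosome. The embryos thus shared 1 kind of cross, and the tissues differed only in the organ sampled, as far as the labels state. The labels do not say whether the pools of a tissue, or of the 2 tissues, came from separate embryos, so the spread between replicates may be technical.

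A dREG peak is an interval that a classifier scored as a transcription start region from run-on reads, at a promoter or at a distal site. Read counts are not part of the lists, so how deeply a library was sequenced is unknown. Positions, widths and ranks are therefore what can be compared. The score has no unit, and it is given here only as a percentile, the share of peaks in the same list with an equal or lower score.

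Alpha-globin is a subunit of haemoglobin, the oxygen carrier of red blood cells. Hba-x encodes the embryonic zeta chain, which primitive red cells make first, and Hba-a1 and Hba-a2 encode the adult chain. Hbq1b encodes theta globin, whose role is not settled. The adult genes depend on a set of enhancers that lie upstream of Hba-x, most of them inside introns of Nprl3, a gene read in the opposite direction. The sites were named in the literature by their distance in kb from the globin genes. Fetal liver is the main site of definitive red cell formation in the embryo, and the yolk sac is the earlier site of primitive red cells.

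Sequences were taken for the adult copies because their likeness bears on every value at these genes. The other sequences are those of the embryonic gene, of the promoter shared by the tissues, and of a stretch inside one of the liver peaks in Nprl3. The promoters are the 250 bases before the RefSeq start in GRCm38.p6, at chr11:32283422-32283671 (plus strand) for Hba-a1, chr11:32296242-32296491 (plus) for Hba-a2, chr11:32276350-32276599 (plus) for Hba-x and chr11:32267708-32267957 (minus) for Nprl3. The last line is the first 300 bases of the first exon of an internal noncoding transcript of Nprl3, at chr11:32256114-32256413 (minus), from the GENCODE M21 transcripts. All are written 5′ to 3′. Capitals mark, on either strand, the motif GATAA, which is the core recognised by Gata1 and its relatives. They also mark CACCC, which Klf1 and related factors recognise. The general promoter motif CCAAT is marked as well, and so is TATAA, the start of a typical TATA element.
Hba-a1: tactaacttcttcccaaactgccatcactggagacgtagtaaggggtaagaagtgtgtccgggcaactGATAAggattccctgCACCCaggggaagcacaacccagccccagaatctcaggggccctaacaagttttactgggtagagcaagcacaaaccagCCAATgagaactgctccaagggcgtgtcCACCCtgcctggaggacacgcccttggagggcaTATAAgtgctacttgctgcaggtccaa
Hba-a2: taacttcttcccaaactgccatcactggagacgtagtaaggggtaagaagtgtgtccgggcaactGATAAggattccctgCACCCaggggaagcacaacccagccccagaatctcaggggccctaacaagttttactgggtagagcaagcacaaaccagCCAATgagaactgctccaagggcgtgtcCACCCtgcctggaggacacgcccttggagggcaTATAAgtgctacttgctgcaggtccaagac
Hba-x: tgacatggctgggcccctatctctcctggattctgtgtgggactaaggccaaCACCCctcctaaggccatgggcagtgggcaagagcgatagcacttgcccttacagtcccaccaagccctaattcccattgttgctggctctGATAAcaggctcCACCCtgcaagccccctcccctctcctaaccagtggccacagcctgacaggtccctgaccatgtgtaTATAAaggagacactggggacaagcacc
Nprl3: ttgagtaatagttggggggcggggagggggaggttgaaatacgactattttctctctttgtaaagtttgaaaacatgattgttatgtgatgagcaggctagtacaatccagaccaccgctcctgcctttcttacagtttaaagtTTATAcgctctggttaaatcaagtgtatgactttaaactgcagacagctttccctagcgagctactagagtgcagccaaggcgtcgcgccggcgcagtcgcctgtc
Nprl3 internal exon: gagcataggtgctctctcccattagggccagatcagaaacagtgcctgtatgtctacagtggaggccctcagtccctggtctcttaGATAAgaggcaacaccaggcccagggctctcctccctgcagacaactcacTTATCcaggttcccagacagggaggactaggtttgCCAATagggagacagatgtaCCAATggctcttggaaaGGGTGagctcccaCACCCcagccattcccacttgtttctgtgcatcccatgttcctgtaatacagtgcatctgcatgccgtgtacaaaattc

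The promoters of Hba-a1 and Hba-a2 were the same sequence. Over the 297 bases that the 300-base RefSeq windows share at an offset of 3 bases, 297 were identical. The main coding transcripts of Hba-a1 (699 bases) and Hba-a2 (554 bases) had a run of 415 identical bases in common. Hbq1b and its copy Hbq1a matched at 286 of 300 window bases, or 95.3%. A short read from either adult copy can be placed at the other or dropped, so every value at these genes is uncertain. The sequence table matched 7 of the 8 members, all but Rhbdf1.

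Motifs were counted in windows from 250 bases before to 50 after the RefSeq start, on both strands, beside 32851 such windows. Hba-a1, Hba-a2 and Hba-x each held CACCC at 2 places, against 57.5% of all windows with at least 1. GATAA was present once in each of these 3 windows and in that of Snrnp25, against 25.4% of all windows. CCAAT occurred once in Hba-a1, Hba-a2 and Hbq1b, 2 times in Mpg and 3 times in Snrnp25 (37.4% of all windows). TATAA was found in Hba-a1, Hba-a2, Hba-x, Hbq1b and Nprl3 (24.9%). AGATAA, which contains GATAA, was in none of the 7 windows (11.2% of all), nor was TGACTCA, an NF-E2 and AP-1 site (5.2%). ATAAA, which can share 4 letters with TATAA, was in those of Hba-x and Nprl3 (40.01%). CG dinucleotides numbered 4 in Hba-a1 and in Hba-a2 and 2 in Hba-x. The counts were 13 in Hbq1b, 20 in Nprl3, 22 in Mpg and 22 in Snrnp25, and the median of all windows was 7. The 3 alpha and zeta genes were thus below the median in CG dinucleotides and the other 4 members above it.

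The first comparison asked where in the locus initiation differed between the tissues. Liver peaks were concentrated in a stretch from within Nprl3 to the end of the globin genes, where yolk sac had few or none. In the 43.2 kb from the end of Mpg to 500 bp before Hba-x, liver replicates 1 and 2 held 7 and 6 peaks, against 2 and 2 in yolk sac. In the 24.97 kb of the globin genes, from there to the end of Hbq1a, they held 5 and 7 peaks, and neither yolk sac list held any (0 and 0). Liver peaks covered 25.3% and 28.3% of the globin stretch. The yolk sac lists had no peak for 52248 bp in replicate 1 and 72598 bp in replicate 2 around these genes. In the 27.8 kb from Snrnp25 to Mpg every list held 3 peaks. The 104.9 kb upstream of Snrnp25 held 0 and 0 liver peaks, against 2 and 1 from yolk sac. Downstream of Hbq1a, to the end of the interval, 2 and 1 peaks came from liver, against 9 and 3 from yolk sac. The bounds of these stretches were chosen after values were seen. No share over stretches of the same lengths elsewhere is given, so the counts per stretch are a description.

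Over the whole interval the counts nearly met, at 17 ± 0 peaks for the liver lists and 12.5 ± 4.95 for those of yolk sac (SD, n = 2 each). The 17 peaks of each liver list exceeded the 16 and 9 of the yolk sac lists (exact two-sided permutation p = 0.3333, the smallest that 2 libraries against 2 allow). Of 5859 intervals of this length with a peak, 4.98% had more peaks in each liver list than in either yolk sac list, and 67% the reverse. Without yolk sac replicate 2 the difference fell from 4.5 to 1 peak, and without yolk sac replicate 1 it was 8. Between the first and the last member (32205415 to 32297298) it was 9.5 peaks, at 14 against 4.5. Relative to list length, the locus held 6.84 and 6.99 of every 10000 liver peaks, against 3.17 and 2.09 of every 10000 from yolk sac. Liver exceeded yolk sac without overlap by this measure in 35.1% of all intervals, and yolk sac exceeded liver in 39.5%. Peaks covered 22734 and 21384 bp in liver, against 16482 and 11318 bp in yolk sac. Liver was higher without overlap in 9.11% of intervals and yolk sac in 71.3%.

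The typical peak of the locus was wider in the liver lists, as was the typical peak of the whole lists. Median width in the locus was 1252 and 1152 bp in the liver replicates, against 777 and 1052 bp in those of yolk sac. Over the whole lists the medians were 1052 and 1002 bp in liver and 902 and 852 bp in yolk sac. Of 4406 intervals with a peak in every list, 35.8% were wider in liver without overlap and 19.1% in yolk sac. The median percentile was 70.1 and 59.8 in liver, against 44.2 and 56.3 in yolk sac, and among the same intervals 23.8% were higher in liver and 29.6% in yolk sac. The direction of the width difference changed, to -200 bp, when only the higher-scoring 50% of peaks were kept, and to -500 bp with lists of equal length.

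**Figure D1:**
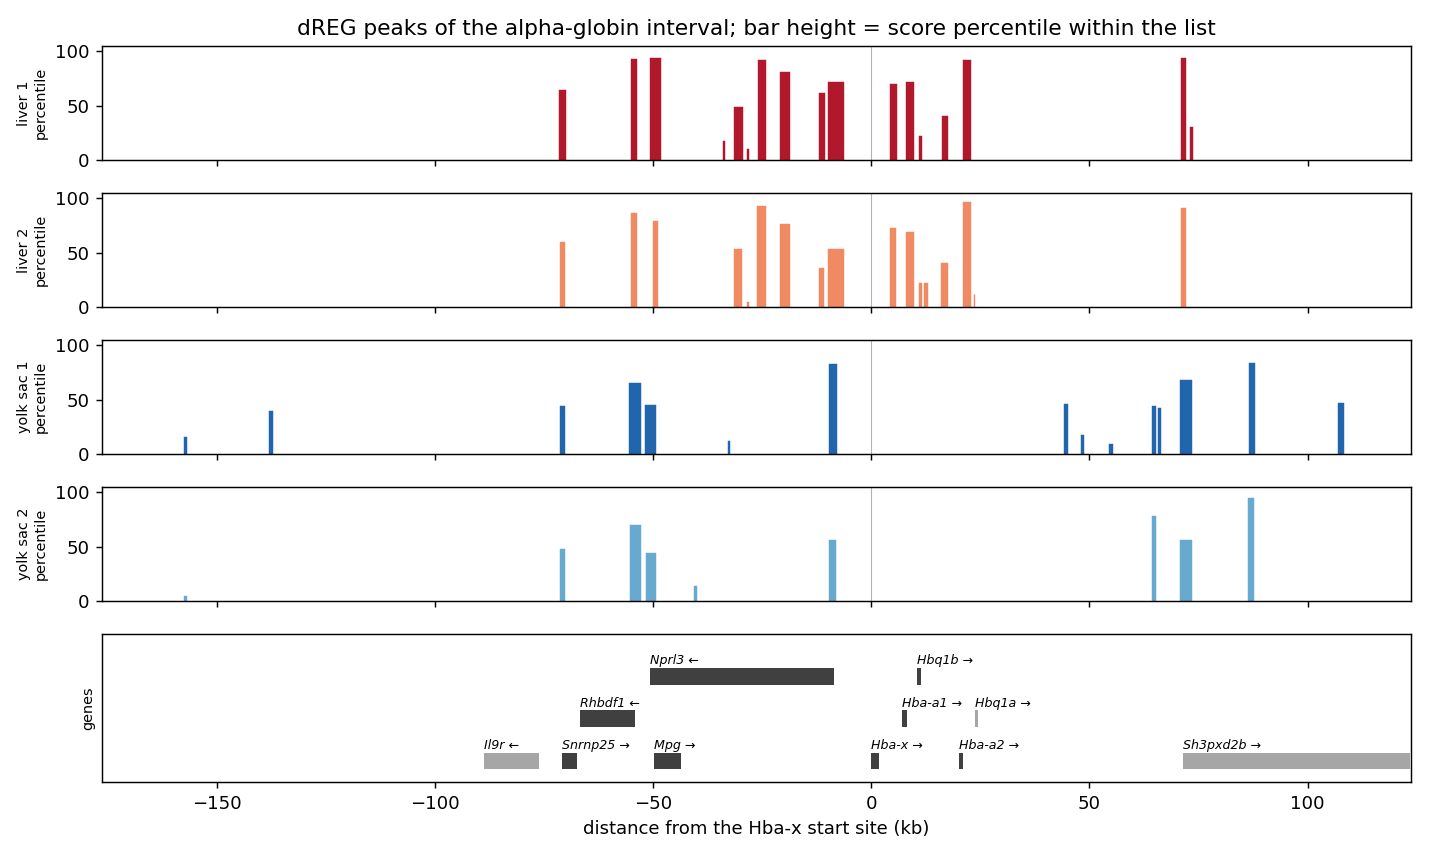
Peaks of each list over the interval, drawn as bars at their distance from the Hba-x start site in kb. Bar width is the peak's width and bar height its score percentile within the list, and protein-coding genes are drawn below with their direction (members dark, other genes light). Liver peaks recur over the stretch from within Nprl3 to Hba-a2, where both yolk sac lists have none between the Nprl3 promoter and the region downstream of Hbq1a.

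**Figure D2:**
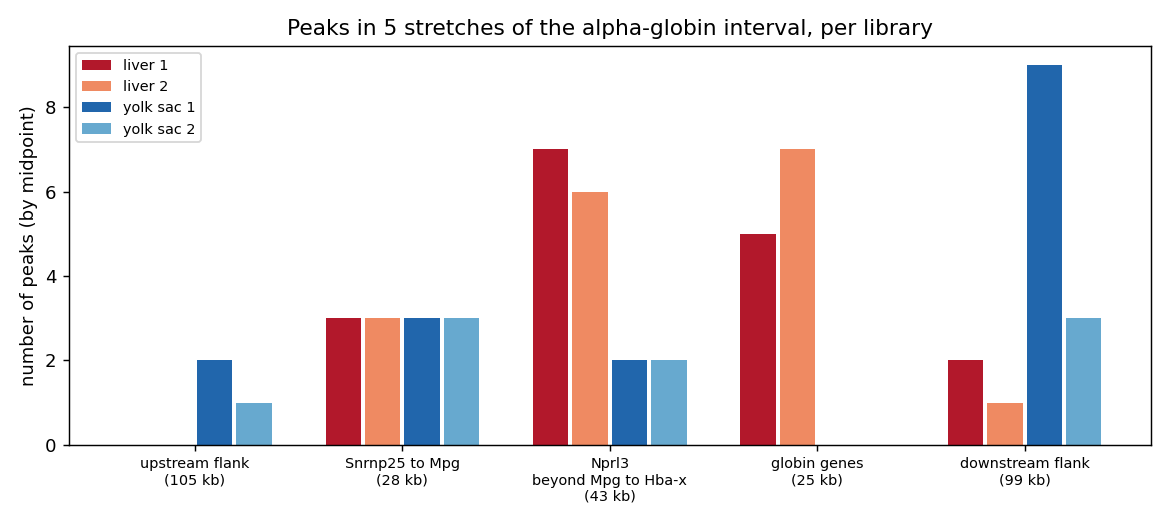
Number of peaks by midpoint in 5 stretches of the interval, 1 bar per library, with the length of each stretch in kb. The 3 peaks from Snrnp25 to Mpg are present in every list, whereas the globin stretch holds 5 and 7 liver peaks, against 0 and 0 from yolk sac.

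Merging the peaks of the 4 lists gave 30 regions. Of these, 10 (33.3%) were liver-only, meaning called in both liver lists and in neither yolk sac list, against 6.62% of the 61095 regions of the genome. Yolk-sac-only regions numbered 3 (10%, against 33%; 11 without yolk sac replicate 2), and 5 regions (16.7%, against 25.7%) were called in all 4 lists. No region was called in 1 list of each tissue only, a pattern that 1.05% of all regions had. The other 12 regions were in 1 list each, and 8 of them were in yolk sac replicate 1. The 10 liver-only regions lay within 54.2 kb, from 32244801 to 32299002. Of the 5859 intervals, 3 held 10 liver-only regions (0.0512%) and 0 held more. The locus was chosen with a liver excess known, so this count is a description. The median width of the 10 regions was 1414.5 bp and their median percentile 60.8, both taken as means of the liver lists. Over all 4047 liver-only regions the medians were 752 bp and 39.9.

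The next comparison concerned the globin genes themselves. Liver peaks were called beside the adult copies, not over their starts, and no yolk sac list had a peak near any globin gene of the locus. The promoters of the copies are the same sequence, and reads from them can be dropped. Whether the gaps at the starts come from this was not tested, and peak lists alone cannot tell. The gaps therefore do not show where initiation at these genes took place. Promoter peaks, taken as those within 500 bp of any annotated start, were found at Hba-a1 and Hbq1b in both liver lists and in neither yolk sac list. This pattern was seen in 1.01% of protein-coding genes. The reverse pattern, seen in 5.25%, occurred at no member. Hba-a2 and Hba-x had none in any list, as did 34.2% of protein-coding genes.

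Hba-a1 (ENSMUSG00000069919.7, chromosome 11, 32283511 to 32284465) was flanked by peaks on each side in liver. The upstream peak lay from 32280601 to 32282002 in replicate 1 and from 32280751 to 32281902 in replicate 2. It ended 1509 and 1609 bp before the first coding start and ranked at the 70.1 and 72.8 percentiles. The downstream peak spanned 32284301 to 32286002 in both liver lists, at the 72.3 and 69 percentiles. It began 790 bp after that start, at -164 bp from the gene's end, and covered the end of the last exon. The stretch without a peak around the start was 2298 and 2398 bp long. The promoter peak counted for Hba-a1 was this downstream peak. It reached by 11 bp into the window of a noncoding retained-intron transcript that starts inside the gene at 32283811. No peak lay within 500 bp of the start of the coding transcript at 32283511, and the RefSeq start is 161 bp from that position.

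Around Hba-a2 (ENSMUSG00000069917.7, 32296489 to 32297298) the arrangement was similar. In liver, an upstream peak ended at 32293702 in both lists, 2787 bp before the start. It began at 32292501 in replicate 1 and at 32292351 in replicate 2, with percentiles of 40.9 and 40.5. The downstream peak, from 32297451 to 32299002 in both lists, began 153 bp past the gene's end and 962 bp after its start. At the 92.3 and 97.03 percentiles it was the highest-ranked liver peak of the globin stretch. The stretch without a peak around the Hba-a2 start was 3748 bp in each liver list. Because the downstream peak was 962 bp away, Hba-a2 gained a promoter peak in both liver lists with a window of 1000 bp.

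**Figure D3:**
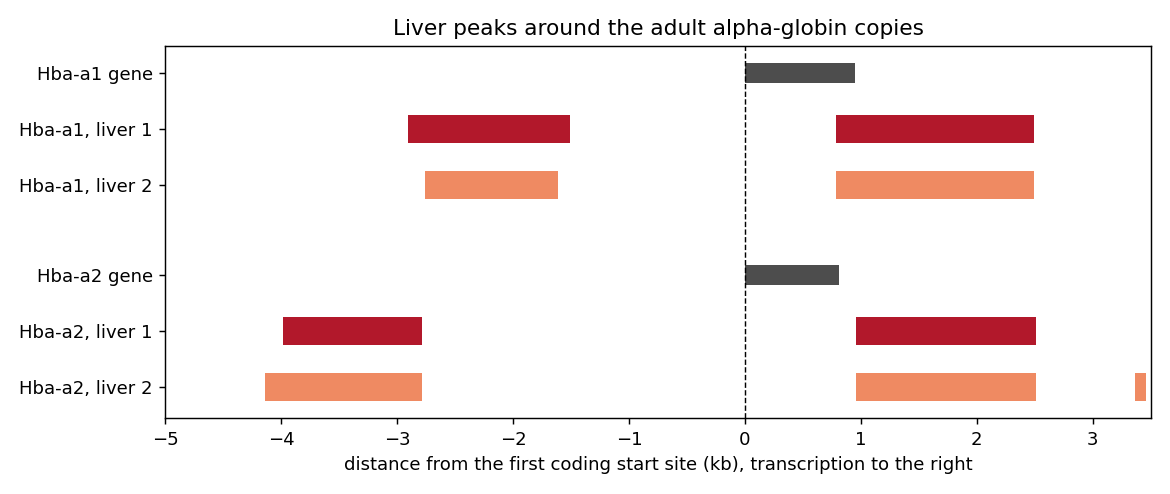
Liver peaks around Hba-a1 and Hba-a2, with 0 at the first coding start site of each copy and distance in kb. Bars are the gene (dark) and the peaks of the 2 liver lists. In both copies a gap without peaks spans the start site, and the next peak begins 790 bp (Hba-a1) or 962 bp (Hba-a2) after it. The promoters of the copies are the same sequence, so the gaps are uncertain.

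The liver lists gave some of these peaks to the same base. Of the 10 liver-only regions of the locus, 3 had the same start and the same end in both lists: those beside Hba-a1, within Hbq1b and beside Hba-a2. Across the genome this held for 188 of 3979 liver-only regions with 1 peak in each liver list (4.72%). At least 99.99% of the peaks of every list lay on a grid of 50 bp, so equal edges mean equal grid positions. Whether the shared sequence of the copies sets these edges was not tested.

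Hbq1b (ENSMUSG00000073063.3, 32286965 to 32287784) had a liver peak of 452 bp within the gene, from 32287351 to 32287802 in both lists. It ranked low, at the 22.5 and 21.8 percentiles, and began 386 bp after the start of the gene. With a window of 250 bp it no longer counted as a promoter peak. It was also absent from the higher-scoring 50% of each liver list. A further peak, from 32288351 to 32289102, was seen in liver replicate 2 alone, at the 22.4 percentile. Hbq1a, the near copy of Hbq1b, had a peak of 102 bp in liver replicate 2 alone, at the 11.7 percentile.

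Hba-x (ENSMUSG00000055609.8, 32276400 to 32278116), the embryonic gene, had no peak over it in any list. The distance from its start to the nearest peak was 4201 and 4351 bp in liver, against 8148 and 8248 bp in yolk sac. In liver the nearest peak was the one upstream of Hba-a1. In yolk sac it was the Nprl3 promoter. The absence of a peak does not show that a gene was silent, since a peak depends on the depth of the library, which is unknown, and on the classifier's threshold.

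Inside Nprl3, 5 regions were liver-only and none was yolk-sac-only. By distance of the midpoint from the Hba-x start they lay at -30.6, -28.4, -25.3, -19.9 and -11.4 kb. The region at -25.3 kb (32250251 to 32251952) ranked highest, at the 92.1 and 92.7 percentiles, with peaks of 1452 and 1652 bp. It lay mostly in intron 4 of the 13-exon coding transcript of Nprl3, and in liver replicate 2 it reached into exon 5. The region at -19.9 kb (32255401 to 32257552) was the widest of the 5, with peaks of 2152 and 2102 bp at the 80.7 and 76.1 percentiles. It covered exon 3 and parts of introns 2 and 3. The internal first exon printed above in part, 321 bases long, lay within its peaks in both liver lists. In the printed stretch GATAA occurred at 2 places, as did CACCC and likewise CCAAT. The letters are a description and show no binding.

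The remaining liver-only regions of Nprl3 ranked lower. At -30.6 kb (32244801 to 32246802, intron 6) the peaks were 2002 and 1652 bp wide, at the 48.5 and 53.4 percentiles. At -11.4 kb (32264451 to 32265502, intron 1) they were 1052 and 952 bp wide, and their percentiles of 61.5 and 36.4 were the furthest apart. The region at -28.4 kb (32247801 to 32248102, intron 6 and in an exon of another transcript) had peaks of 202 and 152 bp. They were among the lowest-scoring of their lists, at the 9.98 and 4.62 percentiles. In yolk sac the only peaks inside Nprl3 other than those at the Nprl3 and Mpg promoters were 302 bp wide and in 1 list each. The peak of replicate 1 was at 32243501 to 32243802 (11.9 percentile) and that of replicate 2 at 32235801 to 32236102 (13.8 percentile).

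Counts of peaks within the Nprl3 annotation and outside its own promoter windows were 5 and 4 in liver, against 2 and 2 in yolk sac. They include the Mpg promoter peak, which lies inside the annotated Nprl3 gene. Liver exceeded yolk sac without overlap in 8.93% of the 8546 protein-coding genes with any such peak, and the reverse held in 44.7% (exact permutation p = 0.3333 for Nprl3, the smallest possible). This count leaves out the regions at -25.3 and -19.9 kb, which overlap the windows of internal noncoding starts of Nprl3. With windows at coding starts only, an alternative chosen after seeing the data, the means were 6.5 peaks in liver and 2 in yolk sac.

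The last comparison concerned Nprl3, Mpg, Rhbdf1 and Snrnp25, which lie upstream of the globin genes and are expressed in many tissues. Each had a promoter peak over its start in all 4 lists, as 53.8% of protein-coding genes did. Their peaks differed in width and extent, and the direction differed from gene to gene. Nprl3 encodes a subunit of the GATOR1 complex, which restrains mTORC1. Its promoter peak was 3352 and 3402 bp wide in liver and 1552 and 1402 bp wide in yolk sac. The liver peaks were thus wider without overlap, by 2.29-fold on average (exact permutation p = 0.3333, the smallest possible). Among 11600 protein-coding genes with a peak at a coding start in every list, liver was wider without overlap in 21% and yolk sac in 34.4%. The median ratio was 0.966, and 98.5% of the genes had a smaller ratio than Nprl3. Nearly all of the excess lay upstream of the start, on the side of the globin genes. Upstream reach was 2195 and 2245 bp in liver and 545 and 445 bp in yolk sac, and downstream reach was 1156 and 1156 bp against 1006 and 956 bp. No share over all genes is given for reach, here or at Rhbdf1, so the side of the excess is a description. The liver peaks ended 6498 and 6448 bp before Hba-x. By score percentile the Nprl3 peak did not separate the tissues, at 71.5 and 53.0 in liver and 82.7 and 56.3 in yolk sac. Whether the wider liver peak is 1 region or a promoter joined to a neighbouring region was not tested. The smallest gap between peaks was 548 bp in every list.

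Rhbdf1, an inactive rhomboid protease that takes part in growth factor release, showed the opposite. Its peak was 1152 and 1252 bp wide in liver and 2452 and 2252 bp wide in yolk sac. The mean ratio of liver to yolk sac was 0.511, and 8.4% of genes had a smaller one. The yolk sac peaks extended 1002 and 1002 bp upstream of the start, and the liver peaks 52 and 152 bp. The narrower liver peaks had the higher percentiles, at 93.1 and 86.2 against 65.6 and 70.2 in yolk sac.

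The Mpg peak, at the gene of a DNA glycosylase that removes alkylated bases, covered the start in every list. It reached further upstream in yolk sac and further downstream in liver. In yolk sac it reached 1910 and 1760 bp upstream and 291 bp downstream of the start in both lists. In liver it reached 860 and 260 bp upstream and 1441 and 741 bp downstream, so the liver lists also differed from each other. No share over all genes is given for reach, so these values are a description. Widths overlapped, at 2302 and 1002 bp in liver and 2202 and 2052 bp in yolk sac. The percentiles did not, at 93.7 and 79 in liver and 45.4 and 44.2 in yolk sac.

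Snrnp25, which encodes a protein of the minor spliceosome, had peaks of 1252 and 1102 bp in liver and 1052 and 852 bp in yolk sac. The nearest values, 1102 and 1052 bp, differed by less than the spread within either tissue. Its percentiles were 64.5 and 59.8 in liver and 44.1 and 47.8 in yolk sac. Percentiles were higher in liver without overlap at Mpg, Rhbdf1 and Snrnp25. This was so for 22.2% of the 11600 genes, and yolk sac was higher in 34.1%. Percentiles depend on list length, and the yolk sac lists are the longer ones. With every list cut to its 24333 highest-scoring peaks, the length of the shortest, Mpg and Snrnp25 had a promoter peak in both liver lists and in 1 of the 2 yolk sac lists.

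**Figure D4:**
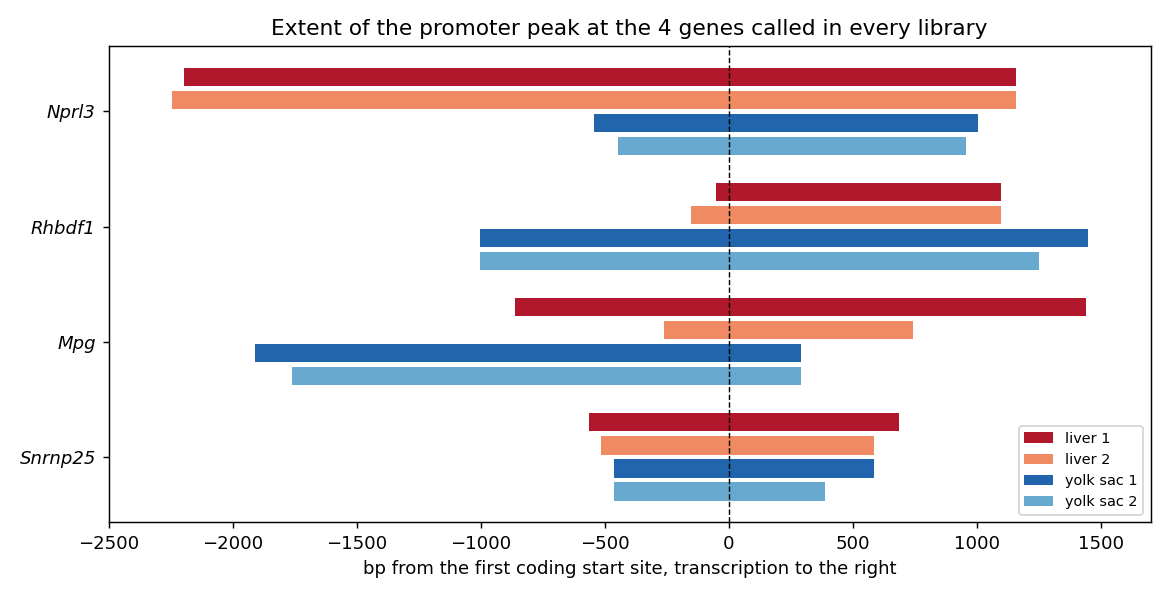
Extent of the promoter peak at Nprl3, Rhbdf1, Mpg and Snrnp25 in each list, in bp from the first coding start site, with upstream to the left. The Nprl3 peaks reach 2195 and 2245 bp upstream in liver, whereas at Rhbdf1 the yolk sac peaks reach further upstream, to 1002 bp.

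**Figure D5:**
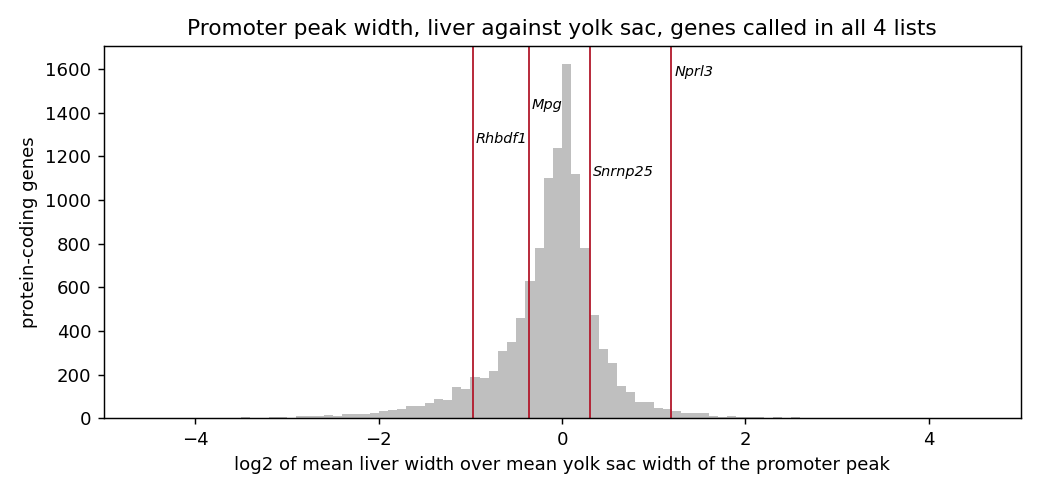
Ratio of mean liver to mean yolk sac width of the promoter peak on a log2 scale, as a histogram over 11600 protein-coding genes, with lines at 4 genes of the locus. Nprl3 lies in the upper tail, above 98.5% of genes, and Rhbdf1 in the lower part, above 8.4%.

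Apart from the members, 2 genes of the interval had a promoter peak in any list, Hbq1a and Sh3pxd2b. Sh3pxd2b, an adaptor protein of podosomes, was called in every list, with peaks of 952 and 1052 bp in liver and 2452 and 2452 bp in yolk sac. Its percentiles were 94.3 and 90.8 in liver and 67.7 and 56.5 in yolk sac. Liver replicate 1 had a further peak of 452 bp in the gene, from 32349501 to 32349952, at the 30.9 percentile. That peak lay outside the promoter window and overlapped the end of the yolk sac peaks. Il9r, Gm12108 and Gm12109 had no promoter peak. The 3 yolk-sac-only regions lay outside the globin stretch. The region at 32362751 to 32364102, within Sh3pxd2b, ranked highest, at the 83.9 and 94.8 percentiles. The region at 32340701 to 32341402, between Hbq1a and Sh3pxd2b, was at the 44.4 and 78.5 percentiles. The third, at 32118801 to 32119202, was outside annotated genes and at the 15.6 and 4.98 percentiles.

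Other globin genes and the factors that act on them were examined in the same way. Of 5 beta-like globin genes, Hbb-bt and Hbb-bs, the adult genes, had promoter peaks in both liver lists only. Hbb-bh1 had one in liver replicate 1 only, and Hbb-y and Hbb-bh2 had none. An interval of the same length centred on the beta-globin genes (chromosome 7, 103682871 to 103982870) held 16 and 11 liver peaks, against 0 and 0 from yolk sac. Of 13 factors and chaperones of globin expression, 12 were in the annotation, all but Ahsp. Gata1, Klf1 and Gfi1b, which encode red cell transcription factors, were called in both liver lists only, so 3 of 12 factors had a pattern seen in 1.01% of protein-coding genes. Tal1, Nfe2, Lmo2, Ldb1, Zfpm1, Lyl1, Cbfa2t3, Atrx and Daxx were called in all 4, which is 9 of 12 against 53.8% of protein-coding genes. Of these 9, 4 had wider peaks in liver without overlap (Tal1, Nfe2, Lmo2 and Lyl1), 1 had wider peaks in yolk sac (Zfpm1), and 4 overlapped or tied. Among the 11600 genes with a peak at a coding start in every list, the shares were 21% and 34.4%. Those shares are for coding starts, whereas each factor's width is that of the highest-scoring peak at any annotated start, taken per list. The lists can therefore differ in the start used. Widths at Tal1, which acts with Gata1 at the globin enhancers, were 5402 and 4952 bp in liver and 1952 and 1802 bp in yolk sac. At Nfe2, whose product binds globin enhancers, they were 5352 and 5202 bp against 1452 and 502 bp, while its percentiles were lower in liver, at 69.4 and 67.1 against 87.5 and 75.2. At Zfpm1, which encodes a Gata1 cofactor, widths were 2802 and 2652 bp in liver, against 3502 and 3102 bp in yolk sac.

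Marker genes gave the tissue background of these values. Of 8 erythroid markers, 8 and 8 had a promoter peak in liver, against 1 and 1 in yolk sac, Epor being called in all 4. Alas2, Slc4a1, Hemgn, Ermap and Rhag were, with Gata1 and Klf1, liver-only, beside the 1.01% of protein-coding genes given above. Of 10 hepatocyte markers 9 and 7 were called in liver and 8 and 8 in yolk sac. Of 10 yolk sac endoderm markers 8 and 6 were called in liver and 10 and 10 in yolk sac. Mesenchyme markers numbered 4 and 7 of 8 in liver and 8 and 8 in yolk sac, and endothelial markers 4 and 5 of 5 against 5 and 5. Of 4 macrophage markers 2 and 2 were called in liver and 4 and 3 in yolk sac. Called in all 4 lists were 5 hepatocyte, 6 endoderm, 4 mesenchyme, 4 endothelial and 2 macrophage markers, beside 53.8% of protein-coding genes. The yolk sac lists are the longer ones, and the share of all genes called in each single list is not given here. These counts are therefore a description. Gata1 and Klf1 are also among the factors above, and Afp, Ttr and Hnf4a are on both the hepatocyte and the endoderm list. The part of cell makeup in the differences at the locus was not tested. In these bulk samples, fewer red cells and less transcription per red cell cannot be told apart.

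The 5 protein-coding genes outside the interval whose promoter percentiles over the 4 lists were nearest to those of Hba-a1 (72.3, 69, 0 and 0) were Ptpn7, Grap2, Hfe2, Cldn13 and Rhd. Their Euclidean distances were 3.85, 4.77, 6.66, 8.82 and 9.19 percentile points over the 4 libraries, with 0 for no peak. Ptpn7 had percentiles of 69.6 and 71.8 in the liver lists and Rhd of 69.2 and 60.3. They were chosen on these values, and so their lack of a promoter peak in yolk sac follows from the choice.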

How the data were processed

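PRO-seq peak lists from 2 liver and 2 yolk sac libraries were analysed. The authors deposited 1 list per library, with a position and a unitless score per peak. The lowest deposited score was 0.80 in every list. The file names carry the word dREG, and the submitters' processing notes name Bowtie2, bedtools and the build mm10 without their role. The dREG version and filters are not given in the sources used here. The lists hold no counts, so depth and counting error are unknown.

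Python 3.11.15, numpy 2.4.6 and pandas 2.3.3 were used with the GENCODE M21 annotation of GRCm38. Positions are 1-based. Promoter peaks are those with at least 1 bp within 500 bp of an annotated start, and interval peaks those with their midpoint inside. Peaks overlapping by 1 bp were merged into regions. A region or gene was liver-only when both liver lists and no yolk sac list called it. The test between tissues was an exact two-sided permutation over 6 assignments of the libraries, with a smallest p of 0.3333. Differences were therefore set against the spread between replicates and against the share of all features without overlap. Region and promoter functions were tested on simulated lists of 5000 regions, and 100% were recovered. The simulated peaks shared a centre in every list and stood far apart, so this checks the code only. Close peaks, peaks at the edge of a window and copied sequence were not simulated.

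The members and lists were chosen with earlier results of these data known. Named items are the members, other genes of the interval with a promoter peak, the listed globin genes and factors, regions called in both libraries of a tissue, and the 5 genes nearest to Hba-a1. The division of the interval into 5 stretches, the motifs GATAA and TATAA, and some single-library peaks were chosen after values or sequences were seen. Genes with near-identical copies are uncertain. Of the erythroid list, 2 genes are not reported here. No allele-resolved values were analysed here.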

Additional observations from a re-analysis of the deposited data

How the results depend on the processing

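A value counts as changed when it moved by more than the larger SD of the 2 tissues, a count of regions by more than 1.5 times, and a promoter call by any amount. Of 116 alternative values, 88 did not change, 26 did and 2 changed direction. The values with the replicate number as a block are among the 88, and they equal the main values by construction. The SD rests on 2 libraries per tissue and can be wide, at 4.95 for peak number in yolk sac. Differences of 1 and 8 peaks thus counted as not changed from 4.5. The tally is therefore a description. The difference in peak number (liver minus yolk sac, 4.5) rose to 11.5 with equal list lengths and to 9.5 between the first and last member. The difference per 10000 peaks (4.28) was 6.99 in the higher-scoring 50% of each list. Covered length (difference 8159 bp) gave 12923 bp with equal list lengths and 11943 bp between the first and last member. Median peak width was 287.5 bp higher in liver, and this changed direction to -200 bp in the higher-scoring 50% and -500 bp with equal list lengths. The median percentile difference (14.7 points) was 28.9 with equal list lengths.

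The difference in member genes with a promoter peak (2) was 3 in the higher-scoring 50%, 3 with equal list lengths, 3 with a window of 1000 bp, 0 with 250 bp and 1 with coding starts only. Hba-a1 had no promoter peak with 250 bp and with coding starts only. The difference in peaks inside Nprl3 (2.5) was 4 with equal list lengths and 4.5 with coding starts only. The 10 liver-only regions stayed within 1.5 times under every alternative run. The 3 yolk-sac-only regions became 1 in the higher-scoring 50%, 1 with equal list lengths and 0 between the first and last member. The cause of these changes was not tested, except that fewer peaks or narrower windows enter by construction.

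Leaving out each library in turn gave differences of 1 to 8 peaks, 3.75 to 4.82 per 10000 peaks, 5577 to 10741 bp covered, 2 to 2 member genes, 2 to 3 peaks inside Nprl3, 8.63 to 20.7 percentile points and 150 to 425 bp of median width. Liver-only regions numbered 10 to 12 and yolk-sac-only regions 3 to 11, the 11 without yolk sac replicate 2. When 1 list of a tissue is left out, a call in its other list suffices. Regions called in that list only then join by construction. With the replicate number as a block the differences were the same by construction (4.5 peaks), with an exact sign-flip p of 0.5, the smallest 2 pairs allow. The labels do not tie equal numbers together, and over 5859 intervals the deviations of same-numbered lists had a correlation of -0.03. Depth is unknown, so no value could be set against counting error.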

Other observations

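Of the 12 regions called in 1 list only, 1 was in liver replicate 1, 2 were in liver replicate 2, 8 in yolk sac replicate 1 and 1 in yolk sac replicate 2. Downstream of Hbq1a, yolk sac replicate 1 held 6 of them, between 32320501 and 32384502, with percentiles from 0.546 to 47.3. The widest, at 32383401 to 32384502, lay within Sh3pxd2b and was 1102 bp wide.

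The share of the interval covered by peaks was 7.58% and 7.13% in liver, against 5.49% and 3.77% in yolk sac. Peaks above the 90th percentile of their list numbered 5 and 3 in liver, against 0 and 1 in yolk sac. The latter was the yolk-sac-only region within Sh3pxd2b. In both liver lists the peaks at -25.3 kb in Nprl3, downstream of Hba-a2 and at the Sh3pxd2b promoter (94.3 and 90.8) were above it. In liver replicate 1 the promoter peaks of Rhbdf1 (93.1) and Mpg (93.7) were too.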
